A study of Mus musculus with 13 samples.

Results

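The genes described here encode the apolipoproteins that liver secretes on lipoprotein particles and the transfer protein that loads lipid onto apolipoprotein B. They are Apoa1, Apoa2, Apoa4, Apoa5, Apob, Apoc1, Apoc2, Apoc3, Apoe and Mttp. They were chosen by name, taking every probe that is not a control and whose gene name in the scanner files is one of these symbols or an older synonym. All 10 genes were found. They had 16 probes on 34 spots, of 27670 gene names, 41174 probes and 43379 spots that are not controls.

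Liver RNA of 13 male C57BL/6 mice was measured, with 1 mouse per array. The groups were 5 TAKI mice, which carry a SIRT1 TA knock-in allele, 3 TEKI mice, which carry a SIRT1 TE knock-in allele, and 5 WT mice with WT SIRT1. Residue T522 of SIRT1, a deacetylase that uses NAD, is a threonine that can be phosphorylated. In the TAKI allele this residue is an alanine, which cannot be phosphorylated, and in the TEKI allele a glutamate, whose charge stands in for a phosphate. Every mouse, WT included, had eaten a western-style diet rich in fat over 5 months, so no group shows these genes on a chow diet. The knock-in alleles are those of the whole animal, and the whole liver was extracted, so the RNA is that of all its cells. In such bulk samples, fewer cells of a type and less RNA per cell cannot be told apart. The labels name no litters or cages, so a p-value measures the spread between these 13 mice.

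Apolipoproteins are the protein part of the particles that carry triglyceride and cholesterol in blood. In hepatocytes, the microsomal triglyceride transfer protein encoded by Mttp lipidates apolipoprotein B as it is made, which gives very low density lipoprotein (VLDL), while apolipoprotein A-I and A-II form high density lipoprotein (HDL). The smaller C apolipoproteins, A-V and E travel between particles and set how fast lipoprotein lipase empties them and how fast liver takes the remnants up.

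Levels are log2 values of the processed spot intensity minus the 75th percentile on that array, so that 1 unit is a doubling. The arrays lay on 5 slides. TAKI mice were on slides 4 and 5, which held no other group, and for them the slide cannot be told apart from the genotype. All 3 TEKI mice shared slide 3 with WT replicate 5, and the other WT mice were on slides 1 and 2. Between 59.8% and 72.6% of probes were well above background on 12 arrays, against 86.5% on that of TEKI replicate 1. Of 8 hepatocyte marker genes, 6 were on the array, and these were well above background on every array.

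No member passed the threshold of an adjusted p of 0.05 in any comparison (limma, Benjamini-Hochberg over 29931 probes). All 16 probes were well above background on all 13 arrays, so none was lost to the filter on dim probes. The probes of Apoc1 and Apoe were saturated on all of them and could not be compared, which left 8 members and 14 probes. In TAKI against WT livers, 0 of the 8 members were called, where 2.19% of all probes tested were. In TEKI against WT livers it was 0 of 8, where 0.00334% of all probes were called, and in TEKI against TAKI livers 0 of 8, where 2.86% were. The smallest adjusted p of a member's main probe was 0.450 for TAKI minus WT, 0.571 for TEKI minus WT and 0.596 for TEKI minus TAKI, the last for Apoa2, which had 1 saturated TAKI spot.

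The measured differences were small. For TAKI minus WT they ran from -0.36 (Apoa4) to 0.28 (Mttp), with 3 members higher, 5 lower (Apoa2 among them at a lower limit) and a median of -0.04, beside a median of 0.00461 over all probes tested. For TEKI minus WT they ran from -0.17 (Apoa4) to 0.25 (Apoc3), with 6 higher, 2 lower and a median of 0.13, beside 0.08 over all probes, and all 6 turned lower with arrays scaled to their medians, a change that put the all-probe median at -0.33. On slide 3 alone, where the TEKI mice met WT replicate 5 only, 7 of the 8 differences had the other sign, Apob being the exception. For TEKI minus TAKI they ran from -0.23 (Mttp) to 0.28 (Apob), with 6 higher, 2 lower and a median of 0.12, beside 0.07, and 4 of the 6 turned lower under the scaling to the median. Both knock-ins were set against the same WT livers. Apart from Apoa4, the 95% confidence intervals of the fold changes lay between 0.678 and 1.51 for TAKI over WT, between 0.778 and 1.63 for TEKI over WT, and between 0.665 and 1.75 for TEKI over TAKI. These are the widest bounds over the main probes of the 7 genes, and single genes had narrower ones. Other probes of Apob and Apoc3 reached further. The interval of 1 Apob probe began at 0.633 for TAKI over WT and at 0.581 for TEKI over WT. That of the other Apoc3 probe ended at 1.57 for TAKI over WT. Among the 2968 brightest probes without saturation, the level range in which 7 of the 8 members lie, 1 probe was called for TAKI minus WT, or 0.0337%, and the median difference was -0.06. For TEKI minus WT it was 0 probes with a median of 0.0163, and for TEKI minus TAKI 2 probes with a median of 0.0656.

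**Figure D1:**
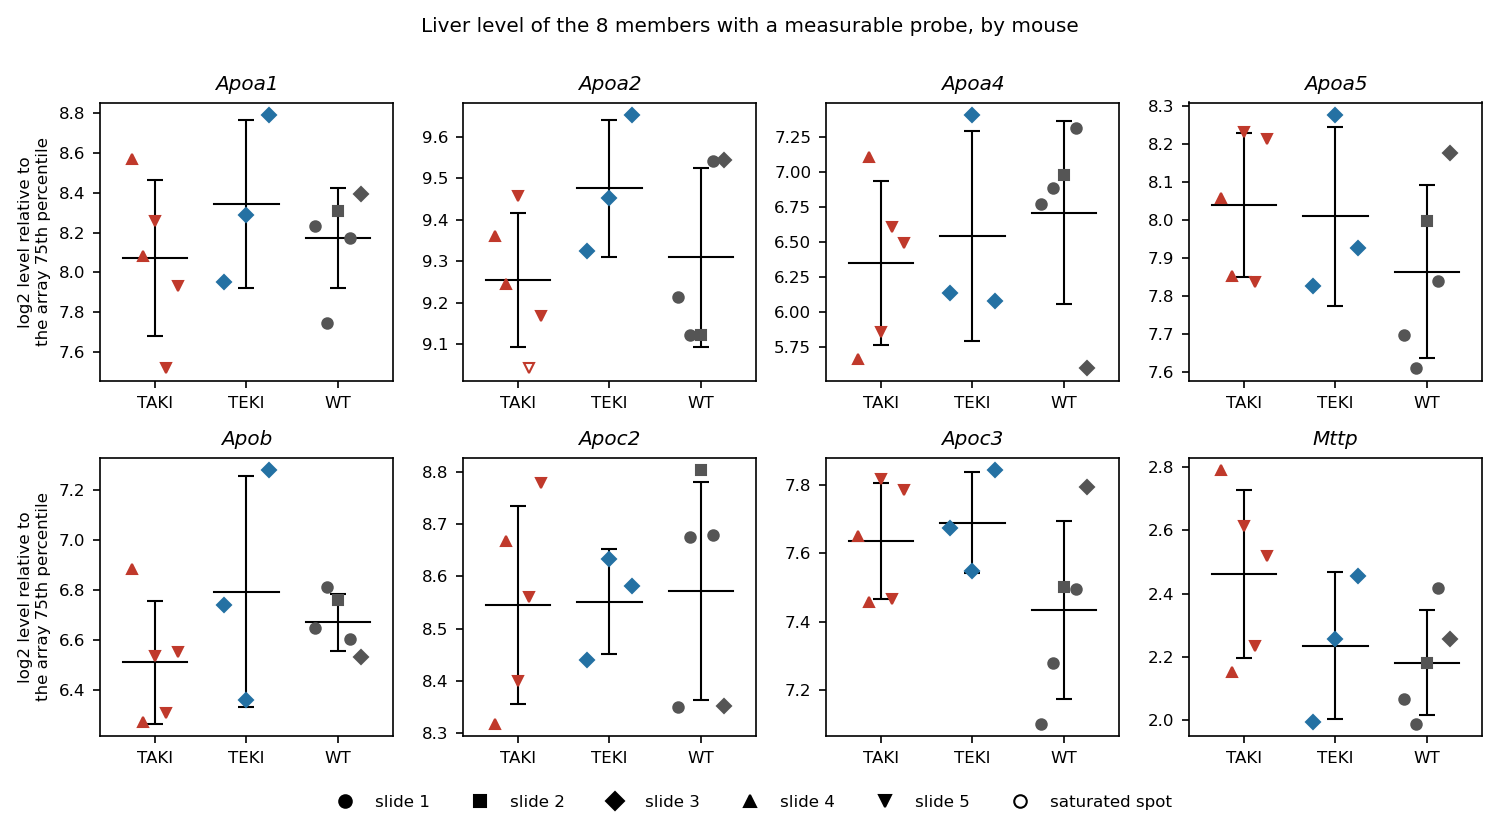
Log2 level above the 75th percentile on its array (vertical axes, each on its own scale) for the main probe of 8 members in TAKI (n = 5), TEKI (n = 3) and WT (n = 5) livers. Each point is 1 mouse, its shape gives the slide, the open point is a saturated spot, and lines with bars are the mean ± SD. The 3 groups overlap in every panel, and Apoa4 spans the widest range, 5.60 to 7.40.

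**Figure D2:**
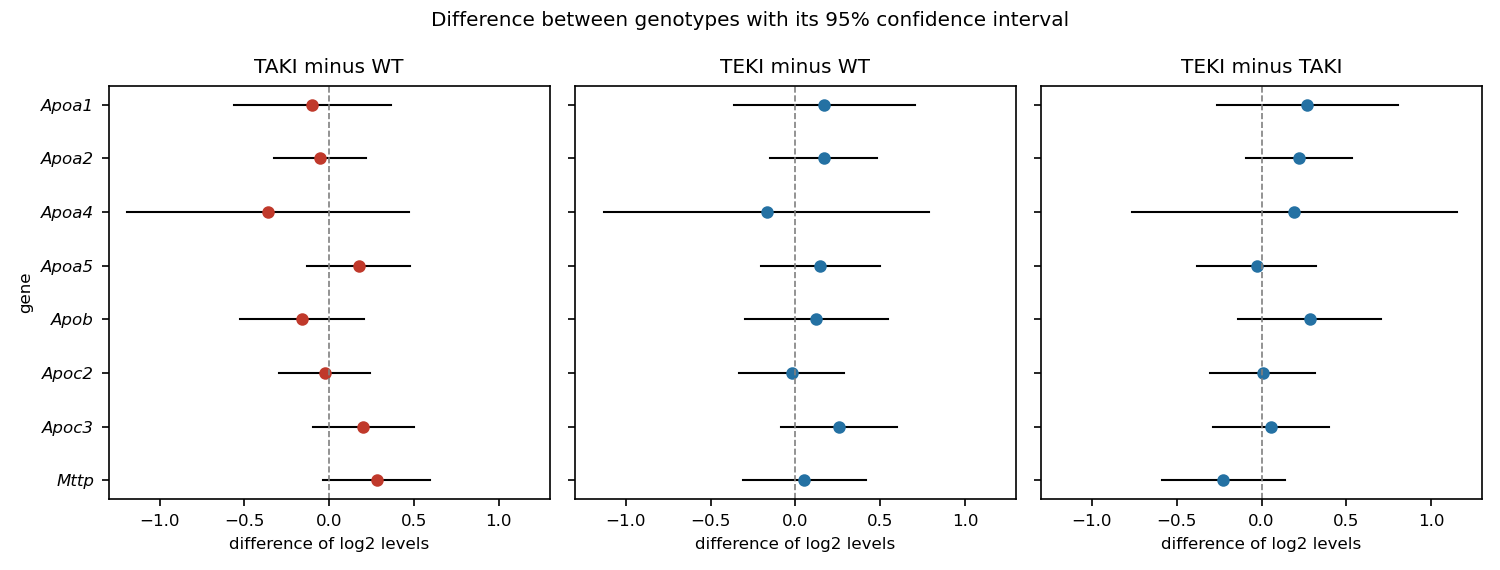
Difference of log2 levels (horizontal axis) with its 95% confidence interval for the same 8 genes in the 3 comparisons, from limma over 13 arrays. Every interval includes 0, and those of Apoa4 are the widest, from -1.19 to 0.47 for TAKI minus WT.

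The 2 members at the start of VLDL assembly are Apob, the scaffold of which each particle holds 1 copy, and Mttp. Mttp had log2 levels of 2.79, 2.15, 2.61, 2.24 and 2.52 in TAKI livers, of 1.99, 2.26 and 2.46 in TEKI livers, and of 2.07, 1.99, 2.18, 2.42 and 2.26 in WT livers. The TAKI mice 1, 3 and 5 lay above every WT mouse, and the other TAKI mice among the WT values. The difference TAKI minus WT was 0.28 ± 0.14 (SE), a fold of 1.21 with a 95% interval of 0.977 to 1.51, the smallest unadjusted p of any main probe of a member (limma, 0.076) with an adjusted p of 0.450. TEKI replicates 1 and 2 lay among the WT values and TEKI replicate 3 just above them. The TEKI minus WT difference was 0.05 ± 0.17, with an adjusted p of 0.947. TEKI minus TAKI was -0.23 ± 0.17, with an adjusted p of 0.647, and -0.11 without TEKI replicate 1.

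Apob had 5 probes, on the plus strand of chromosome 12 (mm7, the build of the scanner files), numbered here from the 5′ to the 3′ end of the transcript. Probe 1 lies within chr12:7954595-7956804, a span longer than the probe, and probe 2 at chr12:7963823-7963882. Probe 3 lies at chr12:7967854-7967913, probe 4 at chr12:7972247-7972306 and probe 5 at chr12:7972307-7972366. The scanner files do not say which exon each lies in. Probes 2, 3 and 5 are printed because the results below differ between them, while probe 4 directly adjoins probe 5, with 0 bases between.
Apob probe 2: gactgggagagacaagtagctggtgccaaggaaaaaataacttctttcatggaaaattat
Apob probe 3: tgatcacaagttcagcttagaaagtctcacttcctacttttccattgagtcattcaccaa
Apob probe 5: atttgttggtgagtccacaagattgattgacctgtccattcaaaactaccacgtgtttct

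Probe 5, the brightest, had log2 levels of 6.88, 6.27, 6.54, 6.31 and 6.55 in TAKI livers, of 6.74, 6.36 and 7.28 in TEKI livers, and of 6.65, 6.81, 6.76, 6.60 and 6.53 in WT livers. The WT mice lay close together and both knock-in groups spread to either side of them, TEKI replicate 3 being the highest of all. The difference was -0.16 ± 0.17 for TAKI minus WT (adjusted p = 0.769), 0.12 ± 0.19 for TEKI minus WT (adjusted p = 0.878) and 0.28 ± 0.19 for TEKI minus TAKI (adjusted p = 0.620). Without TEKI replicate 3 the last was 0.0395, and without TEKI replicate 2 it was 0.50. Probe 4 followed probe 5 closely over the 13 arrays (r = 0.97), with TAKI minus WT at -0.14 and TEKI minus WT at 0.11.

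Probe 3 had log2 levels of 1.33, 1.11, 1.18, 1.05 and 1.14 in TAKI livers, of 1.27, 1.17 and 1.54 in TEKI livers, and of 1.37, 1.43, 1.61, 1.53 and 1.49 in WT livers. All 5 TAKI mice lay below every WT mouse. Its TAKI minus WT difference was -0.32 ± 0.09, a fold of 0.799 (95% interval 0.692 to 0.922), with an unadjusted p of 0.0052 and an adjusted p of 0.122 in limma. It was the only one of the 14 probes whose TAKI and WT values did not overlap. Over all probes tested, 6.54% did not overlap in either direction, with 1.57% having TAKI lower and 4.97% having TAKI higher.

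Probe 2 had log2 levels of 4.72, 4.47, 4.56, 4.42 and 4.48 in TAKI livers, of 4.53, 4.09 and 4.75 in TEKI livers, and of 4.37, 5.05, 4.93, 5.05 and 4.86 in WT livers. WT replicate 1 lay below every TAKI mouse, and the other 4 WT mice lay above every knock-in mouse. The difference was -0.32 ± 0.16 for TAKI minus WT (adjusted p = 0.409) and -0.39 ± 0.18 for TEKI minus WT (unadjusted p = 0.049 and adjusted p = 0.463 in limma). Probe 1 was -0.16 for TAKI minus WT and -0.17 for TEKI minus WT. For TAKI minus WT all 5 probes were thus lower, by 0.14 to 0.32, while for TEKI minus WT probes 1 to 3 were lower and probes 4 and 5 higher. These TEKI directions were not stable. With arrays scaled to their medians all 5 probes were lower, probe 4 by -0.30 and probe 5 by -0.29. On slide 3 alone probe 1 was higher (0.08), and leaving out 1 array took probe 5 as low as -0.12. The ratio of probe 5 to probe 2 within the array, a comparison chosen after these values were seen, was 2.21 to 2.53 on the log2 scale in TEKI livers, 1.80 to 2.16 in TAKI livers and 1.56 to 2.28 in WT livers. The TEKI values lay above all TAKI values and overlapped those of WT, where replicate 1 was the highest. Levels of single probes did not overlap between TEKI and TAKI livers for 7.8% of all probes, and the share for such ratios was not counted. TEKI and TAKI mice shared no slide.

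**Figure D3:**
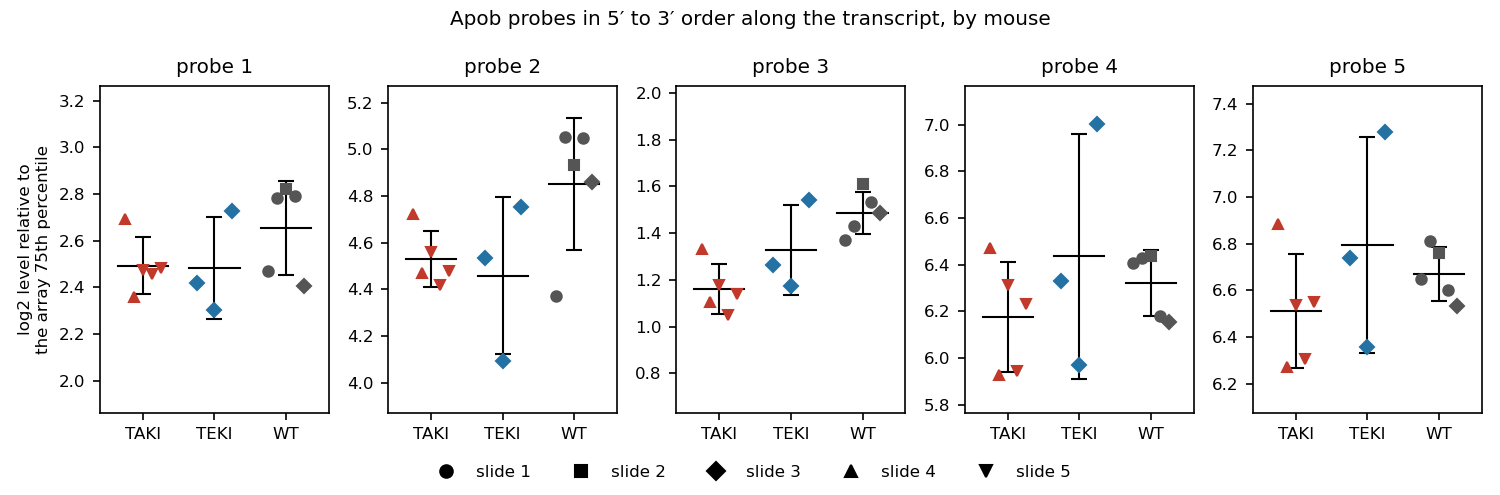
Log2 level above the 75th percentile on its array (vertical axes, all of the same length) for the 5 Apob probes, from the 5′ end (left) to the 3′ end (right), in TAKI (n = 5), TEKI (n = 3) and WT (n = 5) livers. Points are mice with the slide as shape, and bars are the mean ± SD. TAKI and WT values stand apart at probe 3 only.

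Among the HDL proteins, Apoa1, which activates the cholesterol-esterifying enzyme LCAT, had log2 levels of 8.57, 8.08, 8.26, 7.52 and 7.93 in TAKI livers, of 7.95, 8.29 and 8.79 in TEKI livers, and of 8.23, 7.75, 8.31, 8.17 and 8.39 in WT livers. TEKI replicate 3 and TAKI replicate 1 were the highest, TAKI replicate 4 the lowest, and all groups overlapped. The differences were -0.10 ± 0.21 for TAKI minus WT (adjusted p = 0.906), 0.17 ± 0.24 for TEKI minus WT (adjusted p = 0.861) and 0.27 ± 0.24 for TEKI minus TAKI (adjusted p = 0.718). Without TEKI replicate 3, TEKI minus TAKI was 0.0466. The 10 spots of the Apoa1 probe had a coefficient of variation of 1.76% to 4.53% within an array, which covers the noise between spots of 1 hybridisation only.

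Apoa2 encodes the other structural protein of HDL. Its log2 levels ran from 9.04 to 9.46 (median 9.24) in TAKI livers, from 9.32 to 9.65 in TEKI livers, and from 9.12 to 9.54 (median 9.21) in WT livers. The spot of TAKI replicate 4 was saturated, so its 9.04 is a lower bound, and the other 12 were not. The difference was -0.05 ± 0.12 for TAKI minus WT, 0.17 ± 0.14 for TEKI minus WT and 0.22 ± 0.14 for TEKI minus TAKI, each with an adjusted p of at least 0.596. With that bound in the TAKI mean, the TAKI minus WT value is a lower limit and the TEKI minus TAKI value an upper limit. Without TAKI replicate 4 they were -0.00156 and 0.17, so the sign of the TAKI minus WT difference is not settled.

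Apoa4, which liver and intestine secrete on triglyceride-rich particles and HDL, varied most between mice. Its log2 levels were 5.67, 7.11, 5.86, 6.60 and 6.49 in TAKI livers, 6.13, 7.40 and 6.08 in TEKI livers, and 6.77, 6.89, 6.98, 7.31 and 5.60 in WT livers. The highest and lowest mice differed 3.50-fold, and each genotype held both high and low mice. The SD within genotype was 0.65, above that of 98.5% of these brightest probes. The differences were -0.36 ± 0.38 for TAKI minus WT (adjusted p = 0.771), -0.17 ± 0.44 for TEKI minus WT (adjusted p = 0.935) and 0.19 ± 0.44 for TEKI minus TAKI (adjusted p = 0.902). Markers of enterocytes, the intestinal cells that also make Apoa4, were looked at beside it. Of 8 such genes, 3 were well above background on all arrays, and Lct, Cdx1 and Cdx2 on 1 array each. Their summed level relative to the 75th percentile was 114 to 148 in TAKI, 135 to 166 in TEKI and 120 to 192 in WT livers, and their part in the Apoa4 values was not tested.

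The probe whose level most resembled that of Apoa4 over the 13 arrays, A_51_P327496, has no gene name in the files. It lies at chr9:46200791-46200843, starting 346 bases after the region given for the Apoa4 probe, chr9:46199701-46200444 (mm7, plus strand). Whether it reads Apoa4 itself or another transcript was not tested, so it is not counted as another gene. Both sequences are shown because the 2 probes gave almost the same profile.
Apoa4 probe: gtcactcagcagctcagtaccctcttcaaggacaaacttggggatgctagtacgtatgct
A_51_P327496: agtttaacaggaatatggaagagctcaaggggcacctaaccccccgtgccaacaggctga

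The unnamed probe correlated with Apoa4 at r = 0.995 (Spearman's rho 0.984). It had log2 levels of 6.60 to 7.85 in TAKI livers, 7.04 to 8.22 in TEKI livers and 6.67 to 8.04 in WT livers. As for Apoa4, WT replicate 5 and TAKI replicate 1 were low and TEKI replicate 2 was the highest. Its TAKI minus WT difference of -0.33 ± 0.32 had an adjusted p of 0.752. The named genes most like Apoa4 were Pyroxd2 (r = 0.966) and Prss8 (r = 0.953).

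The C apolipoproteins and A-V act on lipolysis. Apoc2, the cofactor that lipoprotein lipase needs, had log2 levels of 8.32, 8.67, 8.40, 8.56 and 8.78 in TAKI livers, of 8.44, 8.63 and 8.58 in TEKI livers, and of 8.35, 8.68, 8.80, 8.68 and 8.35 in WT livers. Its group means, 8.55 ± 0.19 in TAKI, 8.55 ± 0.10 in TEKI and 8.57 ± 0.21 in WT livers (SD, n = 5, 3 and 5), were the closest of any member. The fold of TAKI over WT was 0.982 with a 95% interval of 0.815 to 1.18, and that of TEKI over WT was 0.986 with an interval of 0.796 to 1.22. The Apoc2 probe has chr7:17353942-17353966 in the files, which is shorter than the probe itself.

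Apoc3 slows lipolysis and the uptake of remnants. Both of its probes lie on the minus strand of chromosome 9, at chr9:46191393-46191452 (array row 216) and chr9:46191403-46191462 (array row 472). They share 50 bases, printed in capitals, so they read nearly the same stretch of the transcript from different places on the array.
Apoc3 probe in row 216: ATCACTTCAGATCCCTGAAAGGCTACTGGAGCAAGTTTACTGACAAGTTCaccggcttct
Apoc3 probe in row 472: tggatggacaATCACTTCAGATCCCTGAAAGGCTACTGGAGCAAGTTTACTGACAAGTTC

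The row 216 probe had log2 levels of 7.65, 7.46, 7.82, 7.47 and 7.79 in TAKI livers, of 7.68, 7.55 and 7.84 in TEKI livers, and of 7.10, 7.28, 7.50, 7.50 and 7.80 in WT livers. WT replicates 1 and 2 were the lowest mice, and WT replicate 5 lay among the highest. The difference was 0.20 ± 0.14 for TAKI minus WT (adjusted p = 0.603), 0.25 ± 0.16 for TEKI minus WT (adjusted p = 0.571) and 0.05 ± 0.16 for TEKI minus TAKI (adjusted p = 0.928). Without WT replicate 1, TAKI minus WT was 0.12. On slide 3, where WT replicate 5 was hybridised beside the TEKI mice, TEKI minus WT was -0.11, the opposite direction.

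The row 472 probe gave a larger difference for TAKI minus WT, 0.35 ± 0.14, a fold of 1.27 (95% interval 1.04 to 1.57), with an unadjusted p of 0.026 and an adjusted p of 0.276 in limma. Its log2 levels were 7.74, 7.50, 7.90, 7.57 and 7.91 in TAKI livers, 7.52, 7.47 and 7.80 in TEKI livers, and 7.06, 7.24, 7.46, 7.38 and 7.72 in WT livers. TAKI replicates 1, 3 and 5 lay above every WT mouse. With the probe in row 472 set over that in row 216 within each array, a step chosen after the values were seen, the log2 ratio was 0.09, 0.04, 0.08, 0.11 and 0.12 in TAKI livers. It was -0.15, -0.08 and -0.05 in TEKI livers and -0.04, -0.04, -0.04, -0.11 and -0.07 in WT livers. Every TAKI array thus had a ratio above 0 and every other array one below 0, although the probes differ by 10 bases at each end. When each array was corrected for its blocks of rows, TAKI minus WT became 0.28 for the row 216 probe and 0.30 for the row 472 probe. The 10 spots of the Apoa1 probe, 3 of them in rows 1 to 266 and 7 in rows 267 to 532, gave a lower over upper log2 ratio of 0.02 to 0.07 in TAKI, -0.02 to 0.02 in TEKI and -0.03 to 0.04 in WT livers.

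**Figure D4:**
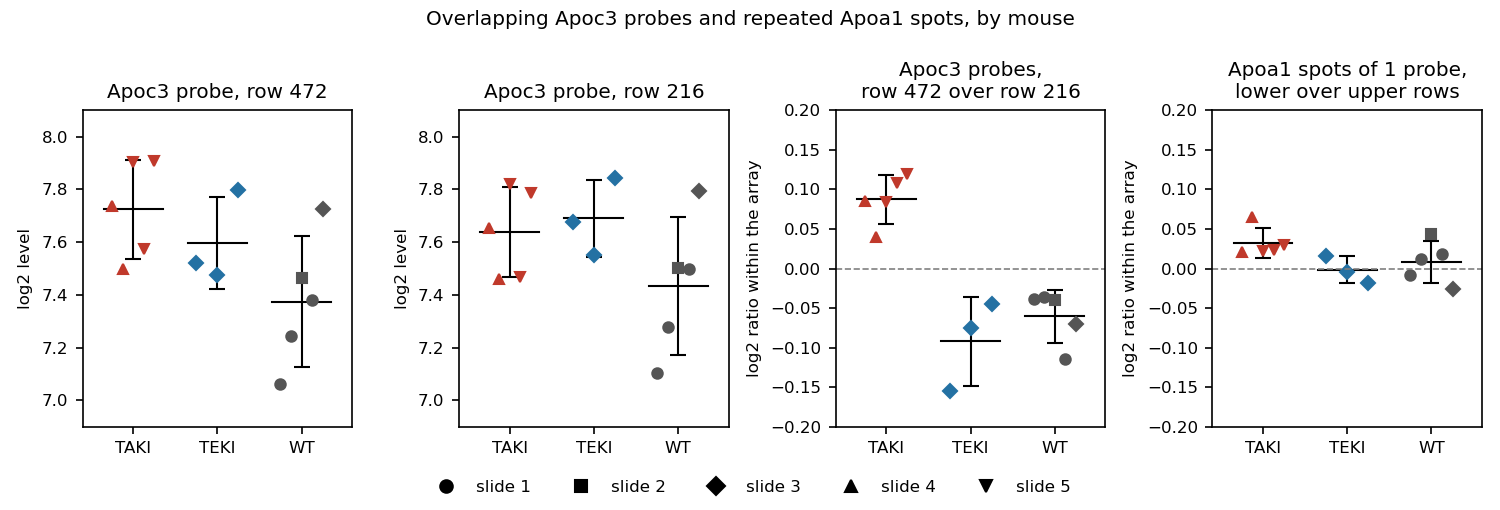
The left panels give the log2 level of the Apoc3 probes in array rows 472 and 216, the next the log2 ratio of these probes within each array, and the last the log2 ratio of Apoa1 spots in lower over upper rows. Points are TAKI (n = 5), TEKI (n = 3) and WT (n = 5) mice with the slide as shape, and bars are the mean ± SD. The Apoc3 ratio is above 0 on all TAKI arrays, which lay on slides of their own, and below 0 on all others.

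Apoa5, which promotes lipolysis, had log2 levels of 8.06, 7.85, 8.23, 7.84 and 8.21 in TAKI livers, of 7.83, 8.28 and 7.93 in TEKI livers, and of 7.70, 7.61, 8.0, 7.84 and 8.18 in WT livers. TAKI replicates 3 and 5 and TEKI replicate 2 lay just above the highest WT mouse, and WT replicates 1 and 2 were the lowest. The difference was 0.17 ± 0.14 for TAKI minus WT (adjusted p = 0.679), 0.15 ± 0.16 for TEKI minus WT (adjusted p = 0.797) and -0.03 ± 0.16 for TEKI minus TAKI (adjusted p = 0.966). Its second probe, which shares no bases with the first, followed it at r = 0.77 and gave -0.00282 for TAKI minus WT and 0.09 for TEKI minus WT. The small difference in TAKI livers was thus present in 1 of 2 probes.

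Apoc1, an inhibitor of lipoprotein lipase and of remnant uptake, and Apoe, the ligand by which remnants bind their receptors, lie beside Apoc2 on chromosome 7. Every Apoc1 spot and all 10 Apoe spots were saturated on every array, so their log2 levels of 9.21 to 10.27 for Apoc1 and 9.09 to 9.89 for Apoe are lower bounds. No fold is given for them, and a difference between genotypes could not be seen with these scans.

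At an unadjusted p of 0.05 the 14 probes gave 2 for TAKI minus WT (Apob probe 3 and the Apoc3 probe in row 472), 1 for TEKI minus WT (Apob probe 2) and 0 for TEKI minus TAKI. Over all probes tested, 13.3%, 10.7% and 11.9% had such a p in these comparisons. The smallest adjusted p of any of the 14 probes was 0.122, 0.463 and 0.596 in the same order. Non-overlapping groups were seen for 3.44% of all probes in TEKI against WT and for 7.8% in TEKI against TAKI, and for 0 of the 14 probes in both.

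Members could also be compared with each other across the 13 mice. Of 21 pairs among the 7 members without any saturated spot, 6 had an unadjusted permutation p under 0.05 and 0 an adjusted p under 0.05 (100000 resamples, two-sided, Benjamini-Hochberg over the 21 pairs). Apoa5 and Apoc3, which lie on chromosome 9 with Apoa4 between them, gave r = 0.71 (permutation p = 0.0054, adjusted p = 0.113) and Spearman's rho 0.65 (permutation p = 0.019). Leaving out the 2 mice farthest from the Apoa5 median gave r = 0.77, and within genotypes r was 0.66. With the second Apoa5 probe in place of the first, r was only 0.35, and 0.36 within genotypes. Apoa4 and Apoc2 gave r = 0.70 (permutation p = 0.011, adjusted p = 0.114; rho 0.65, permutation p = 0.019), 0.51 without the 2 farthest mice and 0.70 within genotypes. Apoa4 and Apoc3 went opposite ways, with r = -0.62 (permutation p = 0.021, adjusted p = 0.131; rho -0.65, permutation p = 0.018), -0.58 without the 2 farthest mice and -0.62 within genotypes. These members share the libraries and the scaling of the arrays, and no slide held enough mice for a value of its own.

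Mttp gave r = 0.60 with both Apoc3 (permutation p = 0.025, adjusted p = 0.131; rho 0.65, permutation p = 0.018) and Apoa5 (permutation p = 0.031, adjusted p = 0.131; rho 0.74, permutation p = 0.005). Without the 2 farthest mice these were 0.55 and 0.63. The second Apoa5 probe gave only r = 0.37 with Mttp. Apoa1 and Apob gave r = 0.57 (permutation p = 0.041, adjusted p = 0.144; rho 0.37, permutation p = 0.208), and 0.02 without TAKI replicate 4 and TEKI replicate 3, so the relation rests on those mice. Apoa1 and Mttp gave r = 0.48 (permutation p = 0.094, adjusted p = 0.281; rho 0.48, permutation p = 0.097), 0.55 without the 2 farthest mice and 0.75 within genotypes.

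**Figure D5:**
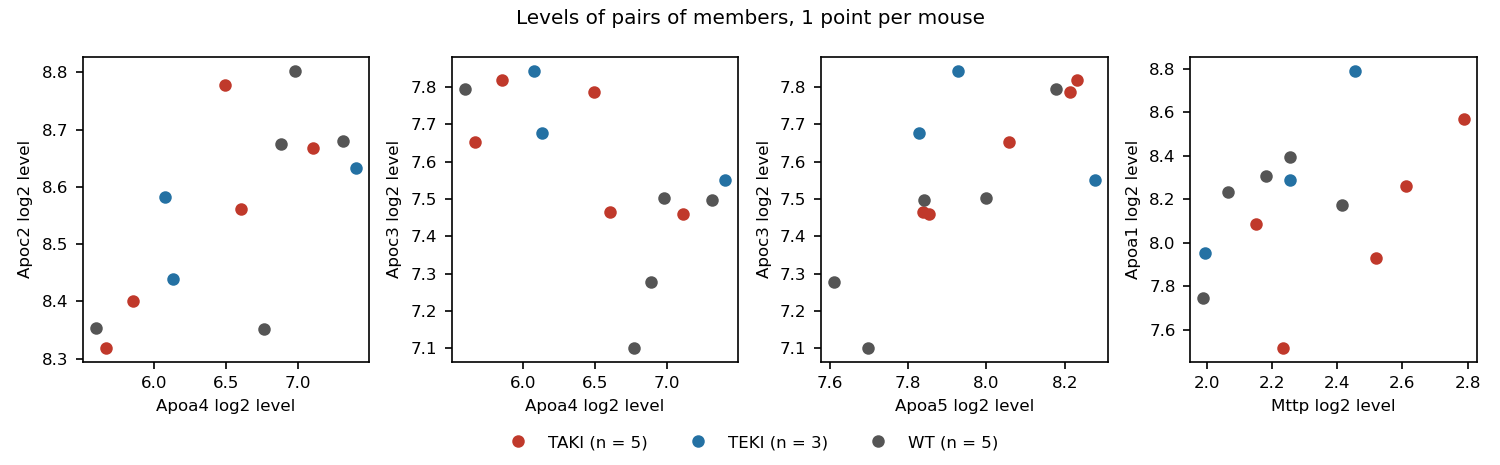
Log2 levels of 4 pairs of members above the 75th percentile on the array, 1 point per mouse, for TAKI (n = 5), TEKI (n = 3) and WT (n = 5). Apoa4 rises with Apoc2 (r = 0.70) and falls with Apoc3 (r = -0.62), Apoc3 rises with Apoa5 (r = 0.71), and Apoa1 against Mttp gives r = 0.48.

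The genes most like each member over the 13 arrays, by Pearson's r, were looked for among 22421 probes without saturation and well above background on all arrays. They were C1rl (0.924), Serpinc1 (0.922) and Gaa (0.920) for Apoa1, and Ppp2r5a (0.908), Dnase2b (0.904) and Tango2 (0.899) for Apoa5. For Apob they were Yap1 (0.966), Aph1a (0.944) and Ube4a (0.937), and for Apoc2 the transcripts 2010004M13Rik (0.890), Ptprs (0.887) and Ank3 (0.884). For Apoc3 they were Slc27a1 (0.949), Higd1a (0.938) and a probe with a transcript identifier only (0.935), and for Mttp they were Psmd9 (0.895), Dek (0.873) and Ddx27 (0.848). With 13 arrays and so many probes, the highest r is high for any probe, so these are descriptions only.

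The other genes of the pathway were taken from 7 lists with 98 genes, of which 94 were measured. None was called: 0 of 94 in TAKI against WT, 0 of 94 in TEKI against WT and 0 of 94 in TEKI against TAKI livers, with smallest adjusted p values of 0.208, 0.430 and 0.291. At an unadjusted p of 0.05 in limma there were 1 higher and 8 lower in TAKI against WT, 1 higher and 2 lower in TEKI against WT, and 2 higher and 0 lower in TEKI against TAKI. Of all probes, 13.3%, 10.7% and 11.9% had such a p, and of the 2968 brightest 19 were higher and 140 lower in TAKI against WT. The list medians below stand beside 0.00461 for TAKI minus WT and 0.08 for TEKI minus WT over all probes tested. Over the 2968 brightest probes these were -0.06 and 0.0163. With arrays scaled to their medians, those of all probes were -0.15 and -0.33, and the list counts are those of the main scaling.

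Of the 25 genes of VLDL assembly and secretion, 10 were higher and 15 lower in TAKI livers (median difference -0.03), and 12 higher and 13 lower in TEKI livers (median -0.02). Surf4, a cargo receptor that carries lipoproteins out of the endoplasmic reticulum, had log2 levels of 5.14 to 5.21 in TAKI, 4.99 to 5.22 in TEKI and 5.31 to 5.51 in WT livers. Both knock-in groups lay below WT without overlap. In TAKI against WT, 1.57% of all probes did so, and 6.54% did not overlap in either direction. In TEKI against WT, 3.44% did not overlap in either direction. The difference was -0.22 ± 0.08 for TAKI minus WT (adjusted p = 0.208) and -0.29 ± 0.09 for TEKI minus WT (adjusted p = 0.430), against the same WT mice. Canx, a chaperone of that compartment, differed by -0.26 ± 0.11 and -0.29 ± 0.12 (adjusted p = 0.284 and 0.440).

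P4hb, the partner subunit of the transfer protein, had 6.28 to 6.47 in TAKI, 6.25 to 6.75 in TEKI and 6.46 to 7.04 in WT livers, with differences of -0.21 ± 0.13 and -0.06 ± 0.15 from WT. Tm6sf2, Cideb, Mia2 and Sort1, which act on the lipidation or export of the particle, lay between -0.12 and 0.08 for TAKI minus WT and between -0.21 and 0.14 for TEKI minus WT. Ces1d, a lipase that mobilises triglyceride for secretion, had 6.47 to 6.82 in TAKI, 6.81 to 7.18 in TEKI and 5.94 to 7.28 in WT livers, with TEKI minus WT at 0.43 ± 0.23 (adjusted p = 0.509). Prap1 was dim, and its TEKI minus WT difference of 1.01 ± 0.37 had an adjusted p of 0.430. The array of TEKI replicate 1 had a median intensity of 145, against 54.1 to 104 on the others. Without that array the median TEKI minus WT difference of all probes was 0.0232, against 0.08 with it. Its part in the values of dim genes was not tested. Dgat1, which makes triglyceride, differed by -0.21 ± 0.10 for TAKI minus WT and by 0.24 ± 0.12 for TEKI minus TAKI, and Sec24b, a coat protein of export vesicles, by -0.20 ± 0.13 for TEKI minus TAKI.

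Of the 5 genes that edit Apob mRNA or assist it, none passed. Apobec1, the deaminase, differed by 0.05 ± 0.16 for TAKI minus WT and by -0.06 ± 0.18 for TEKI minus WT, and its cofactor A1cf by -0.14 ± 0.22 and -0.26 ± 0.25. Rbm47, another cofactor, differed by -0.10 and 0.01 and Syncrip by 0.03 and -0.19 in the same comparisons, while Khsrp differed by 0.26 ± 0.29 for TEKI minus TAKI. The editing itself changes 1 base and is not read by these probes.

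Among 13 other apolipoproteins measured, 6 were higher and 7 lower in TAKI livers (median -0.00632), and 9 higher and 4 lower in TEKI livers (median 0.12). The TEKI median stands beside 0.08 over all probes tested, a value that depends on the scaling of the arrays. Apom, an HDL protein, differed by 0.16 ± 0.14 for TAKI minus WT, Apoh by -0.10 ± 0.15, Clu by -0.01 ± 0.11 and Apof by -0.21 ± 0.12. For TEKI minus WT these were 0.10, 0.10, -0.01 and -0.03. The acute phase apolipoprotein Saa2 had 6.01 to 7.28 in TAKI, 7.39 to 8.65 in TEKI and 6.06 to 9.45 in WT livers. TEKI and TAKI values did not overlap, as for 7.8% of all probes, and the difference of 0.93 ± 0.61 had an adjusted p of 0.605. Apol6 and Apod were dim, with TEKI minus WT at 0.64 ± 0.31 and 0.90 ± 0.63. The part of the array of TEKI replicate 1, where more dim probes were above background, was not tested for them.

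Of 11 genes of HDL formation and remodelling, 4 were higher and 7 lower in TAKI livers (median -0.03) and 8 higher and 3 lower in TEKI livers (median 0.12). The TEKI median stands beside 0.08 over all probes tested, which became -0.33 with arrays scaled to their medians. The lipid exporter Abca1 differed by -0.05 ± 0.13 and -0.11 ± 0.14 from WT in TAKI and TEKI livers. Lcat differed by -0.10 and 0.06, the HDL receptor Scarb1 by 0.11 and 0.17, the phospholipid transfer protein Pltp by -0.14 and 0.12, and hepatic lipase, Lipc, by 0.17 and 0.19. Bmp1, whose product matures apolipoprotein A-I, differed by 0.34 ± 0.17 for TEKI minus TAKI (adjusted p = 0.479), and Pon1, an enzyme carried on HDL, by 0.32 ± 0.23. Lipg was dim, with TEKI minus WT at 0.43 ± 0.34, and the part of the array of TEKI replicate 1 was not tested here either.

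Of 7 genes of lipolysis, 5 were higher and 2 lower in both knock-ins against WT. Lpl, the lipase itself, differed by 0.03 ± 0.29 for TAKI minus WT and -0.46 ± 0.34 for TEKI minus WT. Its inhibitor Angptl4 differed by 0.18 in TAKI and by 0.22 in TEKI livers. Gpihbp1, the endothelial anchor of the lipase, differed by 0.31 ± 0.16 (adjusted p = 0.440) and 0.32 ± 0.18 (adjusted p = 0.538) and Lmf1, which helps it fold, by -0.16 and 0.09. Endothelial markers, all 6 well above background on every array, summed to 20.5 to 23.8 in TAKI, 23.2 to 25.8 in TEKI and 15.8 to 22.9 in WT livers, and their part in the Gpihbp1 values was not tested.

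Of 12 genes of receptors and clearance, 3 were higher and 9 lower in TAKI livers (median -0.16), and 5 higher and 7 lower in TEKI livers (median -0.06). Lrp1, a receptor for remnants, had log2 levels of 4.04 to 4.34 in TAKI, 4.23 to 4.97 in TEKI and 4.47 to 4.74 in WT livers. TAKI values lay below those of WT without overlap, as for 1.57% of all probes (6.54% in either direction). The difference of -0.36 ± 0.13 had an unadjusted p of 0.020 and an adjusted p of 0.245 in limma. Ndst1, an enzyme of the heparan sulfate to which remnants bind, had 5.44 to 5.84 in TAKI, 5.66 to 6.21 in TEKI and 5.93 to 6.15 in WT livers. Its TAKI and WT values did not overlap either, and the difference of -0.32 ± 0.12 for TAKI minus WT had an adjusted p of 0.229.

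Vldlr, a receptor for triglyceride-rich particles, differed by 0.09 for TAKI minus WT and by -0.08 for TEKI minus WT. Lrpap1, a chaperone of such receptors, had 3.31 to 3.44 in TEKI and 2.96 to 3.15 in TAKI livers. These groups did not overlap, as for 7.8% of all probes, and TEKI minus TAKI was 0.29 ± 0.11 (adjusted p = 0.291).

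Of 21 transcription factors and cofactors of apolipoprotein genes, 4 were higher and 17 lower in TAKI livers (median -0.09), and 8 higher and 13 lower in TEKI livers (median -0.04). The TAKI median stands beside -0.06 over the 2968 brightest probes and 0.00461 over all probes tested. Hnf4a, which drives many apolipoprotein genes in liver, differed by -0.04 in both comparisons with WT. Creb3l3, an activator of Apoa4, Apoa5 and Apoc2 in mice, differed by 0.04 and 0.02, Ppara by 0.13 and 0.00172, and Nr1h4, the bile acid receptor, by 0.04 and 0.02. Foxo1, an activator of Mttp and Apoc3, differed by -0.08 and -0.10.

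Sirt1 itself had log2 levels of 0.05 to 0.61 in TAKI, -0.06 to 0.45 in TEKI and 0.10 to 0.44 in WT livers, with differences of -0.01 ± 0.14 and -0.08 ± 0.16. The allele changes a codon, which its probe does not check. Cebpa differed by -0.23 ± 0.11 for TAKI minus WT (adjusted p = 0.391). Srebf1 differed by 0.29 ± 0.17 for TEKI minus TAKI, and Nr2f2 and Rora by -0.21 ± 0.11 and -0.19 ± 0.14 for TEKI minus WT.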

How the data were processed

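Liver RNA (500 ng, Cy3) of each mouse was hybridised to a 1-colour Agilent whole-genome array. Scanner files were made by the authors with Agilent Feature Extraction 9.5, per the submitters' processing notes, and their headers name the mm7 build. The deposited intensity is the background-subtracted, detrended processed signal on a linear scale, per the file headers, with no scaling between arrays. The deposited value table holds the same intensity (largest difference 0).

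Spots of a probe were averaged after leaving out outlier spots, and saturated spots were kept and are stated. Intensity was taken to log2 and each array's 75th percentile subtracted. Probes well above background on at least 3 arrays (29931) entered limma 3.58.1 (R 4.3.3), 1 linear model of 3 genotypes over 13 arrays with 10 residual degrees of freedom. P-values were adjusted by Benjamini-Hochberg over all probes of a comparison. A member is called where a probe passes 0.05. The script was tested on simulated data. The number of arrays limits the precision.

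A member's values are those of its brightest probe saturated on no array (for Apoa2, Apoc1 and Apoe, their one probe). Named pathway genes are a fixed set plus the 2 of smallest p per list and comparison. Some of these genes are counted in their lists but not reported here by name. Probes were named through their accession (22944), symbol (6664), or synonym (3108), and 8458 kept the file's name. The members, lists and tests were chosen with earlier results of these data known. Replicate numbers shared between groups were not taken as pairs of mice. Correlations of 11 same-numbered pairs ran from -0.20 to 0.47 (median 0.11), and those of 44 other pairs from -0.53 to 0.47 (median -0.00165). Alternatives varied the scaling, background correction, filters, probes per gene, moderation, weights, slide, rows and arrays. Python 3.11.15, scipy 1.17.1 and matplotlib 3.10.9 served for permutation tests and figures.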

Additional observations from a re-analysis of the deposited data

Results flagged for a closer look

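Apob probe 2 (A_51_P413088) stood apart in WT replicate 1, whose log2 level of 4.37 was the lowest of the 5 WT livers, the nearest being 4.86. The gap was 0.717 of the range of the WT group, above the value at which Dixon's test marks an outlier in a group of 5. Chance marks about 1 in 20 such groups, and 14 probes were looked at in both groups of 5 mice. Without this mouse the difference of the probe was -0.44 ± 0.13 for TAKI minus WT (adjusted p = 0.158) and -0.51 ± 0.15 for TEKI minus WT (adjusted p = 0.491), against -0.32 and -0.39 with it. The cause of its low value was not tested.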

How the results depend on the processing

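The precision is limited by 3 to 5 mice a group and by saturation, which hides Apoc1 and Apoe. Of 709 alternative values of single members, 642 kept their direction, 67 had the other sign, and none passed the threshold. Many of the 642 could not differ from the main value, so this count does not measure stability. Among these were other filters, other moderation, and arrays left out of a group that was not compared. No member was called in any comparison under any alternative, with 2 exceptions in TAKI minus WT: quantile normalization called 1 (the Apoc3 probe in row 472, 0.46, adjusted p = 0.026), and array weights called 2 (that probe at 0.45, adjusted p = 0.030, and Apob probe 3 at -0.35, adjusted p = 0.018). Over all alternatives on probes the adjusted p of these ran from 0.026 to 0.741 and from 0.018 to 0.362. Array weights also called 2 pathway genes in TAKI minus WT, Lsr (-0.37) and Canx (-0.28), and normexp background correction called 3 in TEKI minus TAKI, Apod (0.91), Prap1 (0.61) and Sorl1 (0.37). The cause was not tested.

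Signs turned as follows. Scaling to the array median moved the median of all probes to -0.15 for TAKI minus WT, -0.33 for TEKI minus WT and -0.18 for TEKI minus TAKI. Under it TEKI minus WT was -0.24 for Apoa1, -0.24 for Apoa2, -0.26 for Apoa5, -0.29 for Apob, -0.16 for Apoc3 and -0.36 for Mttp, and TEKI minus TAKI -0.032 for Apoa2, -0.0603 for Apoa4, -0.25 for Apoc2 and -0.20 for Apoc3. On slide 3 alone, and with slide as a fixed block, TEKI minus WT was -0.0523 for Apoa1, -0.067 for Apoa2, 0.94 for Apoa4, -0.17 for Apoa5, 0.20 for Apoc2, -0.11 for Apoc3 and -0.0201 for Mttp. Normexp moved the median of all probes to -0.10, 0.10 and 0.18, and Apoa2 for TAKI minus WT to 0.0344. Quantile normalization gave 0.0889 for Apoa2 and 0.0483 for Apoc2 in TAKI minus WT, and -0.16 for Apoc2 and -0.0921 for Apoc3 in TEKI minus TAKI. Correction for blocks of rows gave 0.0184 for Apoc2 in TAKI minus WT, 0.00878 in TEKI minus WT and -0.00963 in TEKI minus TAKI, and -0.00701 for Apoc3 in the last. The mean of a gene's probes gave -0.0975 for Apob in TEKI minus WT, and 0.0342 for Apoa5 and -0.0365 for Apoc3 in TEKI minus TAKI. Array weights gave -0.0188 for Apoc2 in TEKI minus TAKI. Scaling to the 2968 brightest probes, chosen after seeing the data, gave 0.025 for Apoc2 in TAKI minus WT, and -0.0626 for Apoc2 and -0.016 for Apoc3 in TEKI minus TAKI.

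Leaving out 1 array at a time turned some signs. For TAKI minus WT the range was -0.22 to 0.0399 for Apoa1, -0.11 to 0.00374 for Apoa2 and -0.0851 to 0.0307 for Apoc2. For TEKI minus WT it was -0.0521 to 0.37 for Apoa1, -0.60 to 0.0607 for Apoa4, -0.12 to 0.34 for Apob, -0.0758 to 0.0371 for Apoc2 and -0.057 to 0.17 for Mttp. For TEKI minus TAKI it was -0.24 to 0.42 for Apoa4, -0.16 to 0.0632 for Apoa5, -0.0502 to 0.0646 for Apoc2 and -0.0238 to 0.12 for Apoc3. The other differences kept their sign. For TAKI minus WT they ran over -0.64 to -0.19 for Apoa4, 0.11 to 0.25 for Apoa5, -0.25 to -0.10 for Apob, 0.12 to 0.29 for Apoc3 and 0.20 to 0.36 for Mttp, for TEKI minus WT over 0.0788 to 0.24 for Apoa2, 0.0133 to 0.24 for Apoa5 and 0.17 to 0.34 for Apoc3, and for TEKI minus TAKI over 0.0466 to 0.47 for Apoa1, 0.13 to 0.30 for Apoa2, 0.0395 to 0.50 for Apob and -0.34 to -0.11 for Mttp.

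With the replicate number as a block, 0 members were called, Apoc2 in TEKI minus WT was 0.0024 and Apoa5 in TEKI minus TAKI 0.0152. Correlations above 0.1 were seen for 6 of 11 same-numbered pairs and for 12 of 44 other pairs. Whether the numbers pair mice is thus not settled. The block called 384 probes in TAKI minus WT, where 656 were called without it, 0 against 1 in TEKI minus WT and 698 against 857 in TEKI minus TAKI. The 656 moved most to 295 with only probes well above background on every array, 325 without TAKI replicate 5, 385 without TAKI replicate 3 and 376 without WT replicate 2. They moved up to 1589 without TEKI replicate 1, 1617 with only the groups compared, 1174 with scaling to the median, 1061 with quantile normalization and 3217 with array weights. For TEKI minus WT, 139 probes were called without TEKI replicate 2, 11 without TEKI replicate 3, 12 without WT replicate 5 and 27 on slide 3 alone, where the single WT array is assumed to vary like the other groups. For TEKI minus TAKI it was 7121 with normexp, 1307 with scaling to the median, 1426 with quantile normalization, 1326 without TEKI replicate 1, 465 without TEKI replicate 3 and 369 with the strict filter.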
